A study of Mus musculus with 8 samples.

Results

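Phase II conjugation enzymes were examined in the liver of male mice that carry 1 nonsense allele of Jag1. The enzymes were taken as every probe on the array whose annotated gene symbol belongs to the glutathione transferases (Gst classes alpha, kappa, mu, omega, pi, theta and zeta, and the microsomal Mgst genes), the UDP-glucuronosyltransferases (Ugt1, Ugt2 and Ugt3) or the sulfotransferases (Sult1 to Sult5). This gave 71 of the 25697 probes on the array and 51 of the 16593 genes they name: 34 probes for 24 glutathione transferase genes, 20 probes for 15 glucuronosyltransferase genes and 17 probes for 12 sulfotransferase genes. Membership followed from the symbols alone and used no measured value, but the members were chosen with earlier results of these data known.

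Total RNA came from 8 livers of C3HeB/FeJ mice, all male and 21 weeks old, with 1 mouse per array. The wild-type group held 4 mice and the heterozygous group held 4 mice with the allele Jag1K295*/+, in which a stop codon stands in place of a lysine codon in Jag1, a ligand of the Notch receptors. The allele is studied in relation to Alagille syndrome, in which the liver forms too few bile ducts, and the comparison asks whether liver transcripts differ between the genotypes. The mutant mice are titled "hom" but called heterozygous by their genotype label and the design text, which the groups here follow. Mean signals per array lay between 422 and 488, and 11022 to 11873 probes per array had a detection p-value (the chance of such a signal from a negative control) under 0.05. Heterozygous replicate 4 stood apart from the other arrays on the first principal component of all tested probes, at 24.3 against -12.2 to 6.90. Values without it are given beside some of the differences that it moved, and not beside all of them. The liver label was borne out by Apoa1, Ttr and Cps1, whose probes were detected on all 8 arrays. Tat, a further hepatocyte marker, was detected on 0 arrays. The albumin probe passed on only 2 of 8 arrays, so a dim probe on this array does not show a silent gene. Fewer cells of a type and less RNA per cell cannot be told apart in whole liver.

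Conjugation makes drugs, hormones and waste products water soluble and ready for export in bile or urine. Glutathione transferases couple the tripeptide glutathione to reactive electrophiles, glucuronosyltransferases move a sugar acid from UDP-glucuronate onto phenols, steroids, bilirubin and bile acids, and sulfotransferases pass a sulfate group from the donor PAPS to hydroxyl or amine groups. In hepatocytes many of these genes are induced through the receptors AhR, CAR and PXR and the stress-activated factor NRF2, and several are expressed differently in male and female mice.

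The sequences before the start sites of a few members and neighbours of theirs are shown to let the reader compare their control regions. The Ugt1a genes of the mouse each have a first exon and promoter of their own and share the remaining exons. In the RefSeq annotation of GRCm38.p6, 7 of the 9 protein-coding Ugt1a genes end at the same base. Each window below holds the 250 bases before the annotated start, on the gene's strand, from the RefSeq promoter table of GRCm38.p6, which held 47 of the 51 member genes. Capitals mark 4 short motifs searched on both strands. TGACNNNGC is a form of the core of the antioxidant response element, and GCGTG is the core of the AhR site. Other forms of the antioxidant element were not searched, so a window without a TGACNNNGC hit may hold one. GTTAAT is part of the site of the hepatocyte factor HNF1, and TGAGTCA is the AP-1 site. No hits of different motifs overlapped in these windows. Ugt1a10 (chr1:88055161-88055410, plus strand), Ugt1a6a (chr1:88134559-88134808, plus strand) and Ugt1a2 (chr1:88200361-88200610, plus strand) are shown for the Ugt1a locus. Ugt3a1 (chr15:9279579-9279828, plus strand) is shown as a member whose groups did not overlap, and Gstp1 (chr19:4037913-4038162, minus strand) and Gstp2 (chr19:4042222-4042471, minus strand) as neighbours whose probes differed.
Ugt1a10: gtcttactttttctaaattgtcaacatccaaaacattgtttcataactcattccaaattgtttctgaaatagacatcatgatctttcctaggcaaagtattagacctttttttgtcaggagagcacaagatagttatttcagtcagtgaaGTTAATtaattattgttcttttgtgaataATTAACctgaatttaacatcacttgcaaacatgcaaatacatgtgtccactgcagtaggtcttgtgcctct
Ugt1a6a: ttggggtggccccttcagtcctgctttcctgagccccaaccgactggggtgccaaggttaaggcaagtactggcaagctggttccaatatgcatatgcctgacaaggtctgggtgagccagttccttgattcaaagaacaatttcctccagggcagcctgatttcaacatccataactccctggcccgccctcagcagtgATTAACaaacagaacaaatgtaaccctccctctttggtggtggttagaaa
Ugt1a2: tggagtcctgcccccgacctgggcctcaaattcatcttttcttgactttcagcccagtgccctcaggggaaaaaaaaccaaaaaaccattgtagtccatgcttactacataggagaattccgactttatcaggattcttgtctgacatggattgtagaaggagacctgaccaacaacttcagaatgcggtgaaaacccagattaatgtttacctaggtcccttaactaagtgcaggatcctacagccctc
Ugt3a1: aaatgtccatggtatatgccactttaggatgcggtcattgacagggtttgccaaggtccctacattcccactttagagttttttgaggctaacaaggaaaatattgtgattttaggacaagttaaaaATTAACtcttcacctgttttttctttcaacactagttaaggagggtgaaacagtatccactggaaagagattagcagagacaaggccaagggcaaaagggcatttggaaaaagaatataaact
Gstp1: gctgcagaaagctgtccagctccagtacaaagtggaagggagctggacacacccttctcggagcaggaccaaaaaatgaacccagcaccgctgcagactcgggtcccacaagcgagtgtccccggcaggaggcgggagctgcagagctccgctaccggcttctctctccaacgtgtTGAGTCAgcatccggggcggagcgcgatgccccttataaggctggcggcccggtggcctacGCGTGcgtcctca
Gstp2: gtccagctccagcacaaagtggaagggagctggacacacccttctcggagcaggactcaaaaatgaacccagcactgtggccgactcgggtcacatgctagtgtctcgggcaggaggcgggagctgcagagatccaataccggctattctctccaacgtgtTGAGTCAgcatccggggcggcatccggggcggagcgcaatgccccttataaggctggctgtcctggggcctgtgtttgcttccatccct
GTTAAT occurs before Ugt1a10, Ugt1a6a and Ugt3a1 and in none of the other windows printed. Over all promoter windows that RefSeq gives, 6.43% hold GTTAAT, 10.2% hold TGACNNNGC, 28.2% hold GCGTG and 4.46% hold TGAGTCA. Counted by gene, GTTAAT was found before 8 of the 47 members (17%, against 7.49% of all genes in the table), TGAGTCA before 8 (17% against 5.16%), GCGTG before 9 (19.1% against 30.9%) and TGACNNNGC before 3, Gsta3, Mgst1 and Gstm5 (6.38% against 11.5%). These are matches of letters and not binding sites. TGAGTCA was added after the windows were read, and its 8 genes include Gstp1 and Gstp2, whose printed windows hold it. Its 17% against 5.16% therefore cannot serve as a test of an excess. Of its genes Gstm5, Gstp1 and Gstp2 had a tested probe, while Ugt2a2, Ugt2b37, Mgst2, Sult1c1 and Sult2b1 had none.

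Of the 71 probes, 49 passed the detection filter (detection p under 0.05 on at least 4 of the 8 arrays) and were tested, for 36 of the 51 genes. The glutathione group kept 21 of its 24 genes, the glucuronosyl group 10 of 15 and the sulfo group 5 of 12. Of the 22 probes that were not tested, 20 were detected on 0 arrays and 2, those of Mgst2 and Sult2b1, on 1 and 2 arrays. In the glutathione group the genes without a tested probe were Gstm3, Gstt4 and Mgst2. In the glucuronosyl group they were Ugt2a1, Ugt2a2, Ugt2b5, Ugt2b37 and Ugt2b38. In the sulfo group they were Sult1b1, Sult1c1, Sult1e1 (the estrogen sulfotransferase), Sult2a6, Sult2b1 (which sulfates cholesterol), Sult3a1 and Sult4a1 (known from brain). Their signals lay between 104 and 141 in both genotypes, and no fold is given for them. Further probes of the tested genes Ugt1a2, Ugt2a3, Gsto2 and Sult1d1 were also below detection on all arrays.

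No conjugation enzyme passed the threshold. With limma, 0 of the 49 tested member probes had an adjusted p under 0.05, against 1 of 11412 over the whole array (0.00876%), which was Krt23. The smallest adjusted p among members was 0.344. At an unadjusted p under 0.05 there were 5 member probes, or 10.2% of those tested, against 11.2% of all tested probes, which is near the background. Of the 5, 4 were lower in heterozygous liver (5.94% of all tested probes were) and 1 was higher (5.26%). The wild-type and heterozygous arrays did not overlap for 5 member probes, 10.2% against 6.25% of all tested probes. For 4 of them the heterozygous arrays were lower (3.1% over all tested probes) and for 1 higher (3.15%). By group, an unadjusted p under 0.05 was reached by 1 of 30 glutathione probes, 4 of 13 glucuronosyl probes and 0 of 6 sulfo probes. The 4 glucuronosyl probes came from 2 places in the genome, 3 of them from the Ugt1a locus.

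**Figure D1:**
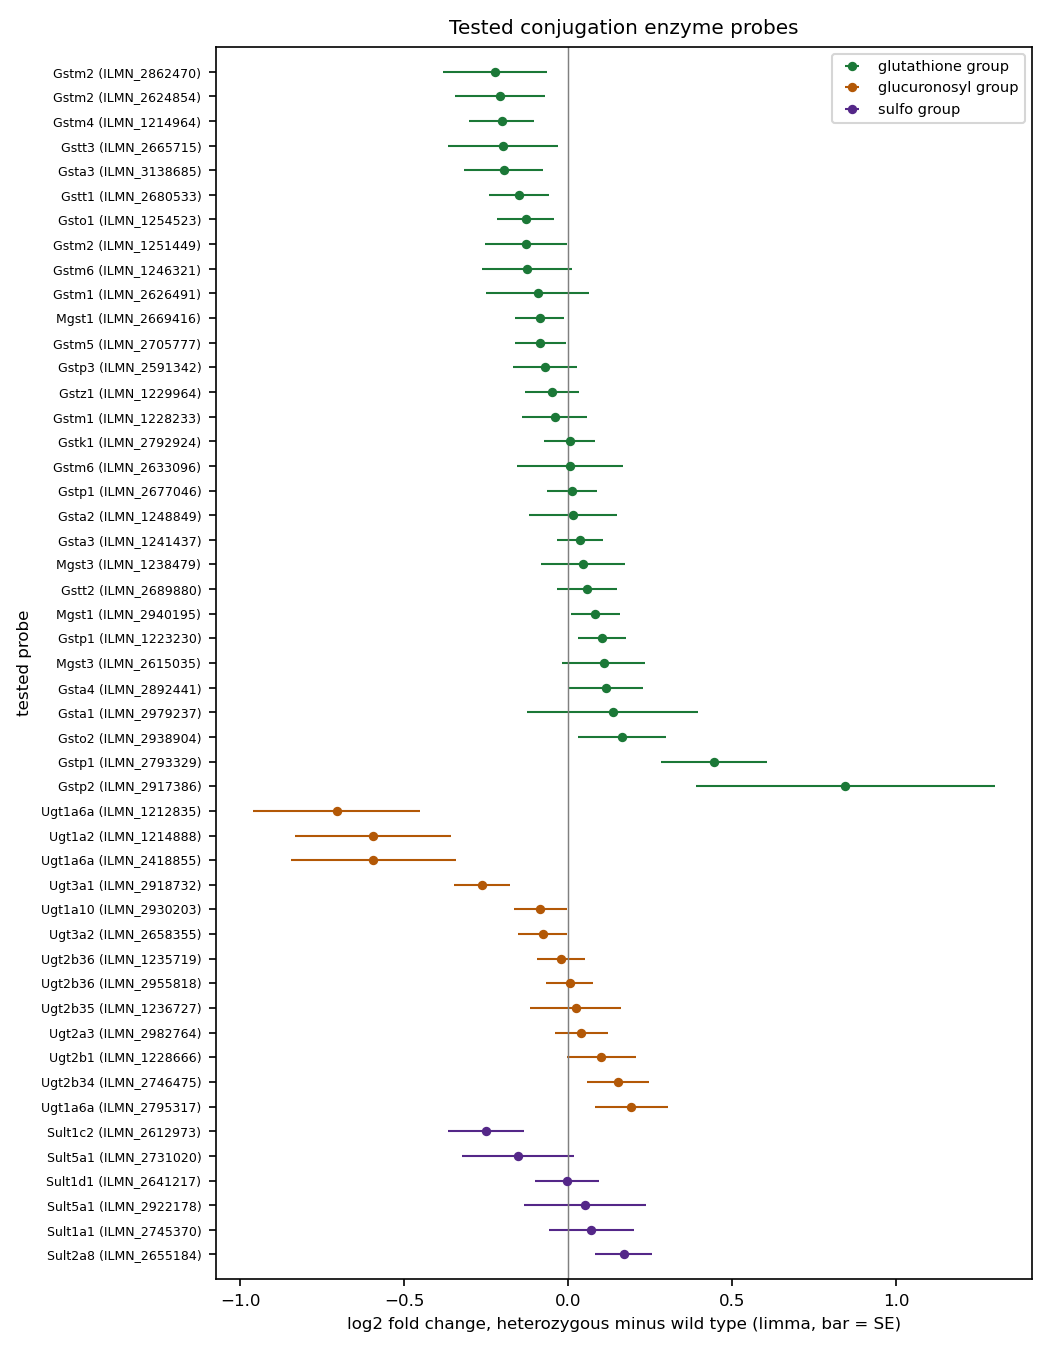
Log2 fold change (heterozygous minus wild type, horizontal axis, limma estimate with SE as bars, 4 arrays against 4) of the 49 tested probes, coloured by enzyme group and ordered within it. Most points lie close to 0, from -0.71 for a Ugt1a6a probe to 0.84 for Gstp2.

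Taking the probe with the highest mean signal for each gene, the medians of all 3 groups were near 0. The median log2 fold change was 0.0042 over the 21 glutathione genes, with 10 below 0. It was -0.05 over the 10 glucuronosyl genes, with 6 below 0, and 0.05 over the 5 sulfo genes, with 2 below 0. Over all 7960 tested genes the median was 0.01, with 45.6% below 0. The size of the difference was ordinary as well: the median absolute log2 fold change was 0.09 over the 36 member genes and 0.09 over all tested genes. Under median scaling the medians of the groups became -0.07, -0.11 and -0.01, with the median of all tested genes at -0.03. Without the filter on dim probes the group medians were 0.0061, 0.0015 and -0.015. The signs of all 3 group medians thus depend on the settings. The 3 genes beyond 0.5 in either direction were Ugt1a6a, Ugt1a2 and Gstp2.

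**Figure D2:**
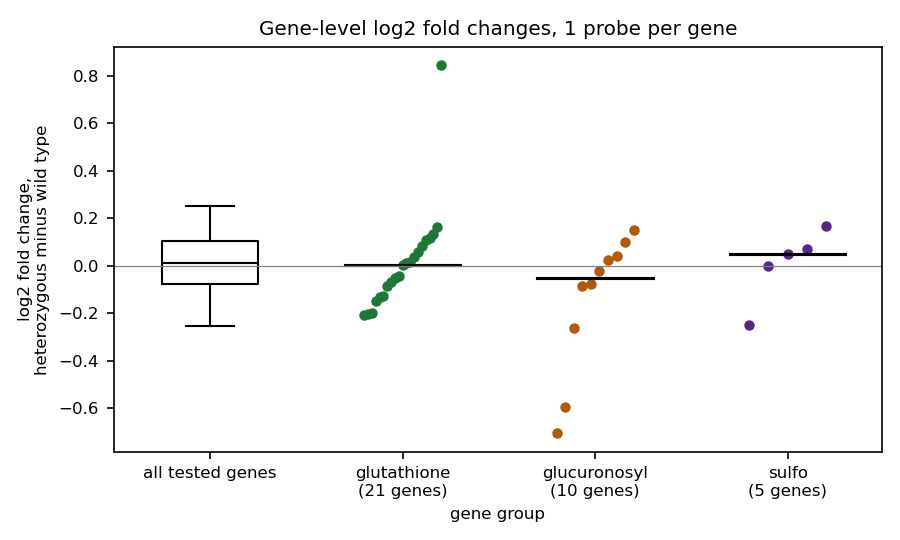
Log2 fold change (heterozygous minus wild type, vertical axis) of all tested genes (box: quartiles, line: median, whiskers: 5th to 95th percentile) beside each gene of the 3 enzyme groups (points; black line: group median). The group medians of 0.0042, -0.05 and 0.05 sit inside the box, and Ugt1a6a and Ugt1a2 lie farthest below it.

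The largest differences on the lower side were those of Ugt1a6a, an enzyme that conjugates small planar phenols, and of its neighbour Ugt1a2. The brightest Ugt1a6a probe (ILMN_1212835) had log2 signals of 10.37, 10.74, 10.39 and 10.28 in wild-type replicates 1 to 4, against 10.26, 9.89, 9.94 and 8.85 in heterozygous replicates 1 to 4. The 4 heterozygous arrays lay below all 4 wild-type arrays, with heterozygous replicate 1 just under the lowest of them and replicate 4 far below the rest. The means were 10.44 ± 0.20 (SD, n = 4) and 9.74 ± 0.62 (SD, n = 4), a log2 fold change of -0.71 ± 0.25 (SE; adjusted p = 0.377, limma), or 1.63-fold lower. A further Ugt1a6a probe (ILMN_2418855) read 8.58, 8.89, 8.55 and 8.54 in wild-type livers, against 8.50, 8.17, 8.38 and 7.15 in heterozygous ones. The groups were again separate, by a narrow margin except for heterozygous replicate 4, and the log2 fold change was -0.59 ± 0.25 (SE; adjusted p = 0.429, limma). The tested Ugt1a2 probe (ILMN_1214888) read 8.82, 9.28, 8.80 and 8.72 in wild-type livers, against 8.46, 8.66, 8.62 and 7.50 in heterozygous ones, a log2 fold change of -0.59 ± 0.24 (SE; adjusted p = 0.408, limma). In all 3 probes wild-type replicate 2 was the highest array and heterozygous replicate 4 the lowest.

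The other probes of the locus did not share this pattern. The third Ugt1a6a probe (ILMN_2795317) read 9.46, 9.39, 9.42 and 9.34 in wild-type livers, against 9.45, 9.42, 9.93 and 9.58 in heterozygous ones, a log2 fold change of 0.19 ± 0.11 (SE; adjusted p = 0.553, limma). Its groups overlapped, and its highest array was heterozygous replicate 3, with replicate 4 next. Without heterozygous replicate 3 it was at 0.081. The Ugt1a10 probe (ILMN_2930203) read 12.95, 13.08, 12.87 and 12.85 in wild-type livers, against 12.92, 12.85, 12.78 and 12.87 in heterozygous ones. Its groups overlapped too, at a log2 fold change of -0.09 with a 95% interval from -0.26 to 0.09. The sources used here do not place the probes on the first or the shared exons, so which Ugt1a transcripts each one reads is not known here, and the probes of one locus are not independent of each other. Without heterozygous replicate 4 the 3 lower probes kept their direction but shrank, to -0.41 and -0.29 for Ugt1a6a and -0.33 for Ugt1a2, with limma adjusted p-values from 0.481 to 0.548. Their spread was wide: the SD within groups of the brightest Ugt1a6a probe exceeded that of 99.0% of all tested probes.

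**Figure D3:**
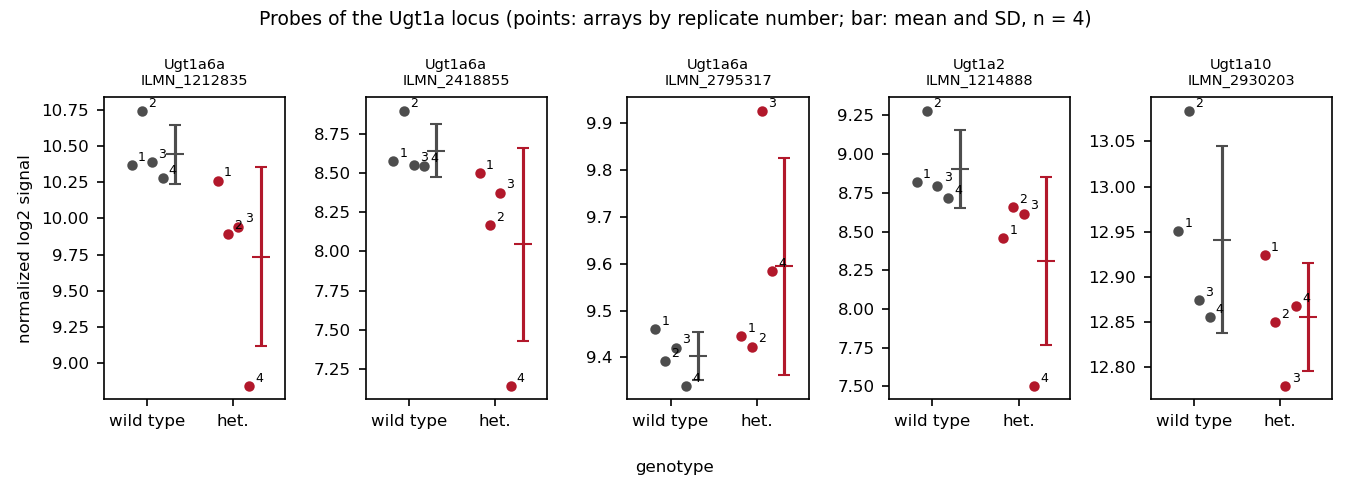
Normalized log2 signal (vertical axis, a separate scale per panel) of the 5 tested Ugt1a probes on the wild-type and heterozygous arrays (points, numbered by replicate), with mean and SD (n = 4) beside them. In the 3 probes with separate groups heterozygous replicate 4 is the lowest point, at 8.85, 7.15 and 7.50.

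Ugt3a1 showed the smallest p of all members, with a modest difference. UGT3A enzymes use sugars other than glucuronic acid, as shown for the human proteins. Its probe (ILMN_2918732) read 10.85, 10.96, 11.04 and 10.95 in wild-type livers, against 10.76, 10.80, 10.67 and 10.52 in heterozygous ones. No heterozygous array reached the lowest wild-type value, and the means were 10.95 ± 0.08 (SD, n = 4) and 10.69 ± 0.12 (SD, n = 4). The log2 fold change was -0.26 ± 0.09 (SE; adjusted p = 0.344, limma), or 1.20-fold lower, and -0.21 (adjusted p = 0.538) without heterozygous replicate 4. Its neighbour Ugt3a2 lay at -0.08, with a 95% interval from -0.24 to 0.09 and overlapping groups.

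The Ugt2 genes, which conjugate steroids and bile acids among other substrates, lay close to 0. Ugt2b34 was at a log2 fold change of 0.15, with arrays from 8.90 to 9.30 in wild type and from 9.19 to 9.34 in heterozygous mice (limma adjusted p = 0.581). Ugt2b1 was at 0.10, with arrays from 11.36 to 11.77 and from 11.56 to 11.73 (limma adjusted p = 0.754). The wild-type arrays of both genes spanned more than the heterozygous ones, and the groups overlapped. Without wild-type replicate 1 Ugt2b34 was at 0.077 and Ugt2b1 at 0.037, and under median scaling they were at 0.095 and 0.031. Ugt2b1 was at 0.050 without wild-type replicate 2 and at 0.17 without wild-type replicate 4. The 2 probes of Ugt2b36 were among the steadiest of all members, at -0.02 and 0.0042, and their 8 arrays spanned only 0.16 and 0.13 log2 units. Ugt2b35 was at 0.02 and Ugt2a3 at 0.04. None of the tested Ugt2 probes had groups that were separate.

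In the glutathione group the pi class held the differences of largest size on the higher side. Pi class transferases are abundant in the liver of male mice. Gstp2 was the most variable member: its probe (ILMN_2917386) read 7.20, 8.10, 8.02 and 9.30 in wild-type livers, against 9.23, 9.98, 8.75 and 8.04 in heterozygous ones. The range over the 8 arrays was 2.78 log2 units and the groups overlapped widely, with wild-type replicate 4 above 3 of the 4 heterozygous arrays. The log2 fold change was 0.84 ± 0.46 (SE; adjusted p = 0.517, limma), with a 95% interval from -0.16 to 1.85. Leaving out single arrays moved it from 0.52, without heterozygous replicate 2, to 1.23, without wild-type replicate 4. It was 0.53 without wild-type replicate 1. The spread of Gstp2 within groups exceeded that of 99.9% of all tested probes.

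The 3 probes of Gstp1 differed from each other. The dimmest (ILMN_2793329) read 7.04, 7.60, 7.83 and 7.61 in wild-type livers, against 7.93, 7.96, 8.22 and 7.74 in heterozygous ones. Only wild-type replicate 3 lay above the lowest heterozygous array, so the groups overlapped by 1 array. The log2 fold change was 0.44 ± 0.16 (SE; adjusted p = 0.377, limma), or 1.36-fold higher, and it was 0.28 without wild-type replicate 1 and 0.29 without background correction. The brighter probes gave 0.10 ± 0.07 (SE, ILMN_1223230) and 0.01 ± 0.08 (SE, ILMN_2677046), and the 95% interval of the brightest ran from -0.16 to 0.18. Gstp3, the third gene of the cluster, was at -0.07, with overlapping groups. The Gstp genes are close copies, and how far each probe also reads the others is not known here.

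**Figure D4:**
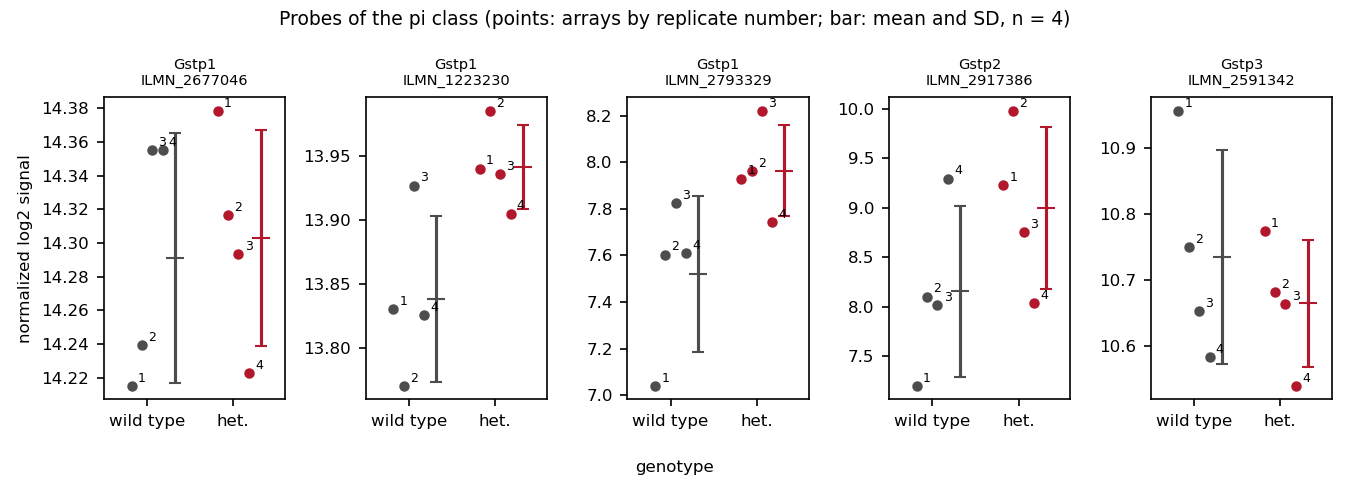
Normalized log2 signal (vertical axis, a separate scale per panel) of the 5 pi class probes on the wild-type and heterozygous arrays (points, numbered by replicate), with mean and SD (n = 4) beside them. The Gstp2 panel spans 7.20 to 9.98, while the brightest Gstp1 probe spans only 0.16 log2 units.

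The mu class, whose 6 genes lie side by side on chromosome 3, leaned the other way without any probe near the threshold. By the brightest probes all 5 tested genes (Gstm1, Gstm2, Gstm4, Gstm5 and Gstm6) lay below 0, with a median log2 fold change of -0.13, and all 5 did so under each background correction and scaling tried. Without heterozygous replicate 4 it was 4 of 5, with a median of -0.06. Gstm2 had 3 tested probes, which gave -0.22 ± 0.16, -0.21 ± 0.14 and -0.13 ± 0.12 (SE). Its probe with the largest difference (ILMN_2862470) read 11.04, 11.31, 10.84 and 10.82 in wild-type livers, against 10.86, 11.08, 10.80 and 10.36 in heterozygous ones (limma adjusted p = 0.621). The brightest (ILMN_2624854) read 11.79, 12.07, 11.62 and 11.71 and then 11.69, 11.83, 11.59 and 11.25 (limma adjusted p = 0.596). The groups overlapped, and, as for Ugt1a6a, wild-type replicate 2 was the highest and heterozygous replicate 4 the lowest array in both. Without heterozygous replicate 4 these 2 probes were at -0.085 and -0.095, and without wild-type replicate 2 at -0.12 and -0.12. Gstm4 was at -0.20 ± 0.10 (SE; adjusted p = 0.479, limma), with arrays of 9.33, 9.46, 9.07 and 9.28 in wild-type livers, against 9.08, 9.09, 9.21 and 8.95 in heterozygous ones. Its groups overlapped through wild-type replicate 3. Gstm1, with probes at -0.04 and -0.09, Gstm5, at -0.09, and Gstm6, with probes at -0.13 and 0.0049, completed the class.

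The alpha class held genes with a wide range of steadiness. Gsta3, whose enzyme detoxifies aflatoxin in mice, was at 0.04 by its bright probe, whose 8 arrays lay within 0.11 log2 units, and at -0.20 by a dimmer one (limma adjusted p = 0.573). Gsta4, which handles the lipid peroxidation product 4-hydroxynonenal, was at 0.11, and Gsta2 at 0.01. Gsta1 was at 0.13 ± 0.26 (SE), with arrays from 6.38 to 7.67 in wild type and from 6.66 to 7.57 in heterozygous mice. The Gsta1 probe varied more within groups than 99.1% of all tested probes. Under median scaling 1 of the 4 alpha class genes lay below 0 and under quantile normalization none did.

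The remaining glutathione transferases lay from -0.20 for Gstt3 to 0.16 for Gsto2, with overlapping groups. In the theta class Gstt1 was at -0.15, Gstt3 at -0.20 and Gstt2 at 0.06. The theta median of -0.15 lay below the mu median of -0.13, so the lean was not particular to the mu class. Without heterozygous replicate 4 the theta median was -0.09. Gstz1, the isomerase that also serves the breakdown of tyrosine, was at -0.05, and its 4 wild-type arrays had an SD of 0.01 against 0.13 in heterozygous mice. Gstk1, of mitochondria and peroxisomes, was at 0.0042 with a 95% interval from -0.17 to 0.18. Gsto1, a thiol transferase, was at -0.13 and the dim Gsto2 at 0.16, with Gsto2 arrays from 4.80 to 5.24 and from 4.90 to 5.46 (limma adjusted p = 0.674). With an array left out Gsto2 ran from 0.081, without wild-type replicate 2, to 0.27, without heterozygous replicate 1, with 0.082 without heterozygous replicate 3. It was 0.045 without background correction, 0.085 with an offset of 50 and 0.26 in the processed table. The membrane-bound Mgst1 gave -0.09 and 0.08 by its 2 probes, and Mgst3 gave 0.04 and 0.11. The opposite signs of the Mgst1 probes were within 2 SE of 0 in each case.

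Among the sulfotransferases Sult2a8, a liver enzyme that sulfates bile acids, had separate groups. Its probe read 11.89, 12.01, 11.995 and 11.98 in wild-type livers, against 12.03, 12.07, 12.34 and 12.11 in heterozygous ones. The gap between the highest wild-type and the lowest heterozygous array was narrow, and heterozygous replicate 3 stood highest. The log2 fold change was 0.17 ± 0.09 (SE; adjusted p = 0.491, limma), or 1.12-fold higher, and 0.10 without heterozygous replicate 3. Under median scaling it was 0.089. Sult1c2 was at -0.25 ± 0.12 (SE; adjusted p = 0.457, limma), with arrays of 8.67, 8.17, 8.24 and 8.48 in wild-type livers, against 8.14, 8.20, 8.23 and 7.99 in heterozygous ones. Its groups overlapped, since wild-type replicate 2 lay within the heterozygous range, and without wild-type replicate 1 it was at -0.16. Sult1a1, the phenol sulfotransferase, was at 0.07, with arrays from 12.38 to 12.84 and from 12.48 to 12.94, and heterozygous replicate 3 again the highest. Sult1d1, which acts on catecholamines, was at -0.0030 with a 95% interval from -0.22 to 0.21. The 2 probes of Sult5a1 gave 0.05 and -0.15, and both had overlapping groups, with arrays from 7.82 to 8.60 and from 6.19 to 6.88 over all 8 mice. With an array left out the dimmer of them ran from -0.30, without wild-type replicate 1, to -0.054, without heterozygous replicate 3.

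Probes of the same gene did not always give the same sign. Of the 10 member genes with more than 1 tested probe, 6 had probes on both sides of 0: Ugt1a6a, Ugt2b36, Gsta3, Gstm6, Mgst1 and Sult5a1. Among these 6 genes, Ugt1a6a was the one with probes at an unadjusted p under 0.05, both of them lower.

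The arrays themselves differed across the members. Heterozygous replicate 4 was the lowest of the 8 arrays for 21 of the 49 tested member probes (42.9%) and the highest for 2, while over all tested probes it was the lowest for 18.6% and the highest for 20.7%. Heterozygous replicate 3 was the highest array for 14 member probes (28.6%, against 13.5% over all tested probes), and wild-type replicate 1 for 12 (24.5% against 12.7%). Wild-type replicate 2 was the highest for 10 (20.4% against 11.1%), and heterozygous replicate 1 was the lowest for 0 (against 8.70%).

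**Figure D5:**
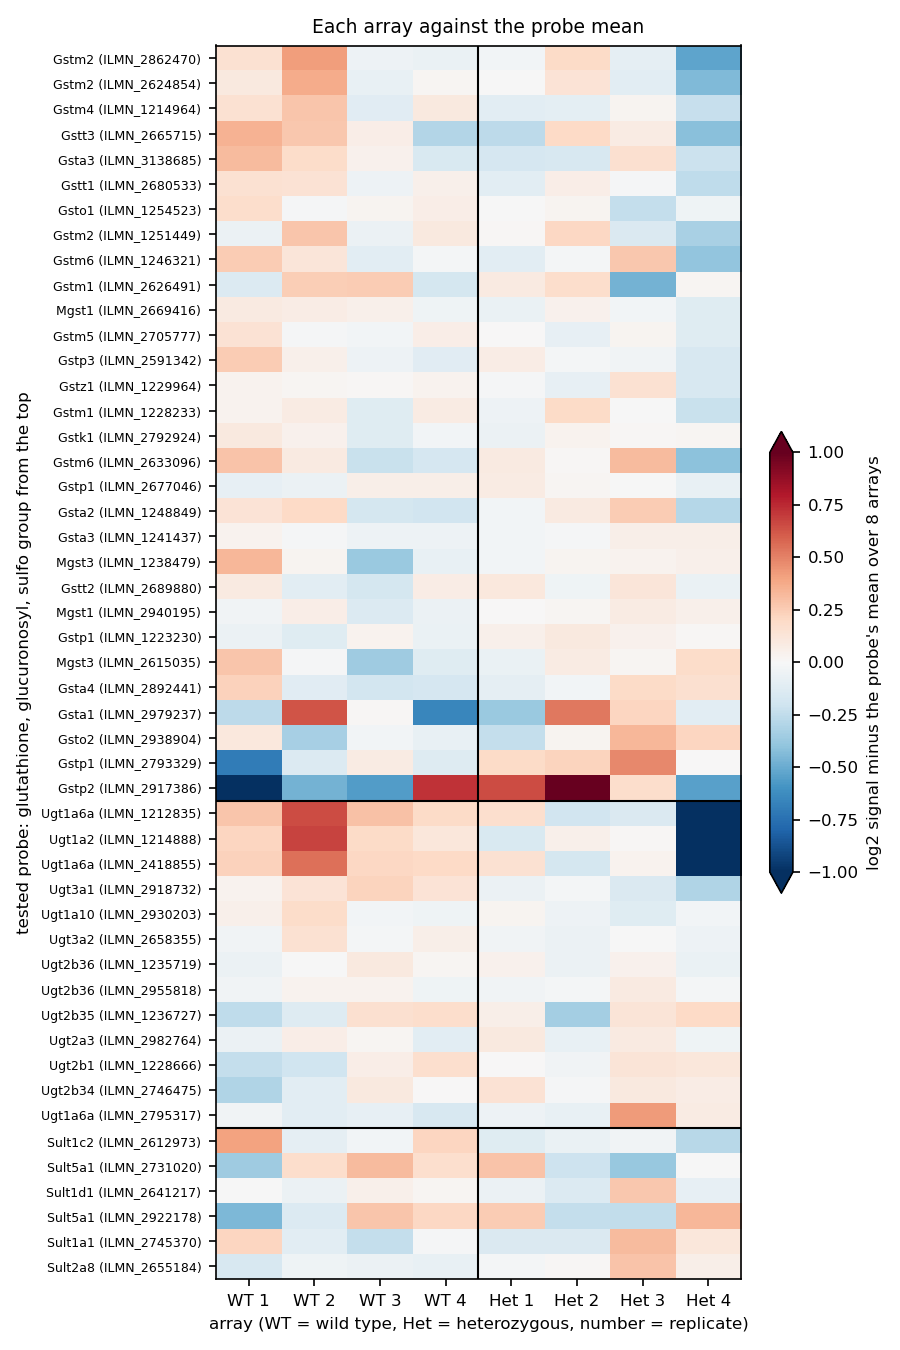
Log2 signal of each array minus the probe's mean over the 8 arrays (colour, red higher and blue lower, colours saturate at 1 and -1) for the 49 tested probes (rows, enzyme groups separated by lines) and 8 arrays (columns, wild type left). Heterozygous replicate 4 is blue for most glutathione transferase and the 3 lower Ugt1a probes, and wild-type replicate 2 is red for the same Ugt1a probes.

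Genes that supply, export or control conjugation were read from lists chosen with the members, with 1 probe per gene, and 0 genes of any of these lists passed the adjusted threshold of limma in either direction. At an unadjusted p under 0.05 there was 1 lower gene of glutathione supply, 1 higher of UDP-glucuronate supply, 0 of PAPS supply, 3 higher and 1 lower of the other conjugating enzymes, 1 lower of export, 3 lower regulators and 1 lower other target. Over all tested probes 5.94% were lower and 5.26% higher at that p, but the counts above are of genes. By probe it was 1 of 12, 2 of 8 and 0 of 14 for the supply lists in that order. The other conjugating enzymes had 7 of 20 and export 1 of 8. Regulators had 3 of 19 and the other targets 2 of 21, against 11.2% of all tested probes. Such small counts are not read as a result about any list. Of 9 tested genes of glutathione supply 6 lay below 0 (median log2 fold change -0.0093), and the smallest p was that of Ggct, encoding gamma-glutamylcyclotransferase, at -0.35 (limma adjusted p = 0.309). Of 6 genes of UDP-glucuronate supply 2 lay below 0 (median 0.06), with the transporter gene Slc35d1 at 0.25 (adjusted p = 0.363). Of 8 genes of PAPS supply and sulfate handling 3 lay below 0 (median 0.01), with the sulfate transporter gene Slc13a4 at -0.25 (adjusted p = 0.4996). Ugdh, which makes UDP-glucuronate, was detected on 0 arrays.

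Among the other conjugating enzymes Nnmt was the gene with the smallest p. Nnmt, which methylates nicotinamide, read 7.59, 7.64, 7.30 and 6.25 in wild-type livers, against 8.70, 8.85, 8.28 and 9.39 in heterozygous ones, a log2 fold change of 1.61 ± 0.31 (SE; adjusted p = 0.183, limma). Its groups were separate, and heterozygous replicate 4 was its highest array. Of the 15 tested genes of that list 8 lay below 0 (median -0.00025), with Mettl7b at 0.22 and Nat8, an N-acetyltransferase gene, at 0.33. Among 7 tested genes for export of conjugates and uptake 4 lay below 0 (median -0.05), with the hepatocyte uptake transporter gene Slco1b2 at -0.54 (adjusted p = 0.397).

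Among 16 tested regulators 10 lay below 0 (median -0.06). The receptor gene Ppara was at -0.40, Nr1i3, encoding CAR, at -0.23, and Arnt, encoding the partner of AhR, at -0.26, with limma adjusted p-values of 0.353, 0.378 and 0.443. Nr1i3 read 10.20, 10.09, 9.93 and 10.15 in wild-type livers, against 9.80, 9.83, 9.94 and 9.88 in heterozygous ones, so its groups overlapped through wild-type replicate 3. Ahr was detected on 0 arrays. Among 16 tested other targets of NRF2, AhR, CAR and PXR 8 lay below 0 and 8 above (median -0.02). Cyp2b10, a target of CAR, was the 1 gene of this list with an unadjusted p under 0.05. It was at -0.52 with overlapping groups (limma adjusted p = 0.400). Its probe was dim, with signals from 141 to 201, and a tie to the value of Nr1i3 was not tested.

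Marker genes of further cell types of the liver, and of the pancreas, fat and gut, were read beside the members. Of the bile duct markers, Krt23 was lower, at a log2 fold change of -1.35 (adjusted p = 0.0104, limma), and Krt7 was at -0.03, while Krt19, Sox9 and Cftr were detected on 0 arrays; the log2 of the summed signal of Krt23 and Krt7 ran from 7.15 to 7.67 in wild type and from 6.35 to 6.54 in heterozygous mice. Apoa4, the 1 tested enterocyte marker, ran from 11.26 to 11.44 and from 10.68 to 11.09, with Fabp2, Sis and Vil1 at no detection. The 3 tested acinar genes summed to 10.86 to 11.03 and 10.94 to 11.04 with Cela2a and Cpa1 undetected. Car3, the 1 tested gene of the adipocyte list, ran from 13.92 to 14.05 and from 13.68 to 14.04. Adipoq, Cidec and Plin1 of that list were undetected, so the Car3 value does not read fat cells. Of the tested markers, 4 of 5 Kupffer cell, 5 of 6 endothelial, 4 of 4 stellate and 3 of 3 erythroid genes lay below 0, with 0 past the adjusted threshold of limma and 2, both erythroid, at an unadjusted p under 0.05. Over all tested genes 45.6% lay below 0, and 11.2% of all tested probes reached that unadjusted p. Cd5l of the Kupffer cell list and Lrat and Col3a1 of the stellate list were detected on 0 arrays. The log2 of the summed signal of the Kupffer cell list ran from 9.30 to 9.65 in wild type and from 9.07 to 9.53 in heterozygous mice, that of the endothelial list from 11.96 to 12.12 and from 11.88 to 12.08, that of the stellate list from 11.43 to 11.89 and from 11.48 to 11.58, and that of the erythroid list from 13.02 to 13.65 and from 12.87 to 13.12. The hepatocyte list ran from 15.77 to 15.86 and from 15.75 to 15.88. The ranges overlapped in these lists except for the bile duct and enterocyte markers. Of the 8 listed bile duct genes 5 had a probe and 2 were tested, and Krt23 was the 1 probe of the whole array past the threshold. The enterocyte value was that of Apoa4 alone. The separate ranges thus rest on Krt23 and on Apoa4, and a single gene does not read a cell type. The part of the marker lists in the members' values was not tested.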

How the data were processed

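The authors deposited, per the file headers, non-normalized signal intensity and a detection p-value for each probe on each of 8 Illumina bead arrays, and, in a second table, processed intensity on a linear scale with values below 0, whose normalization is not given in the sources used here. GenomeStudio 2011.1 is named in the submitters' processing notes. Here the non-normalized signals were corrected with nec in limma 3.58.1 (R 4.3.3), with an offset of 16, quantile normalized and taken as log2; the offset compresses differences of dim probes. Probes with a detection p under 0.05 on at least 4 of 8 arrays were tested (11412) by two-sided lmFit and eBayes, adjusted over all of them after Benjamini and Hochberg, at a threshold of 0.05. The SE and 95% intervals are those of this fit. For gene counts the probe with the highest mean signal stood for a gene. Probe symbols came from GEO's platform annotation (23978 probes with 1 symbol, 0 with several, 1719 with none), and all 71 member probes matched RefSeq by Entrez identifier. The steps were tested on simulated data. The number of arrays limits the precision.

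The members, the lists and the alternatives were chosen with earlier results of these data known. Named with values on each array are probes with an unadjusted p under 0.05 or separate groups, and the 3 largest differences in each direction per enzyme group; some are given as ranges, and well-known liver members are given with short values. Of each supporting list up to 3 genes with an unadjusted p under 0.05, or else the 1 with the smallest p, are named. Apoa1, Ttr, Cps1, albumin, Krt23, Krt7, Apoa4, Car3, Ugdh and Ahr were named after their values were seen. So were the undetected marker genes, Krt19, Sox9 and Cftr among them. The motif TGAGTCA was added after the windows were read. The settings also tried were raw signals without correction, median scaling, an offset of 50, all probes tested, a stricter filter (p under 0.01 on all 8 arrays), the processed table floored at 16, the replicate number as a block, each array left out, array weights, a trended robust prior and the mean of a gene's probes. No BeadChip could serve as a block, since the files name none. Replicate numbers were not taken as a pairing of the mice. The weak correlations of same-numbered mice, given below, cannot show that no pairing or shared batch existed. Each array holds another mouse.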

Additional observations from a re-analysis of the deposited data

Results flagged for a closer look

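Among 120 sets of 4 log2 values, 1 per named probe and genotype, 5 had 1 value well away from its 3 companions; about 1 in 20 sets, or 6, would do so by chance. For Ugt1a6a (ILMN_2418855) wild-type replicate 2 read 8.89 against 8.54 to 8.58 on the other wild-type arrays. For Ugt2b36 (ILMN_2955818) heterozygous replicate 3 read 13.33 against 13.20 to 13.22, and for the dimmer Gsta3 probe (ILMN_3138685) the same array read 10.35 against 9.97 to 10.02. Wild-type replicate 1 read 10.23 for Gsta4, against 9.81 to 9.88, and 12.03 for Mettl7b, against 12.10 to 12.11.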

How the results depend on the processing

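Across 17 alternatives 0 member probes passed the adjusted threshold. The count of members at an unadjusted p under 0.05, 5 as reported, became 8 without background correction and ran from 3 to 6 with an array left out; it was 3 without wild-type replicate 2. The count over all probes, 1 as reported, was 0 without background correction, 0 without the filter and 0 in the fit with a replicate block, and ran from 0 to 7 with an array left out: 0 without wild-type replicate 4 or heterozygous replicate 3, 2 without heterozygous replicate 2 and 7 without heterozygous replicate 1. Same-numbered mice deviated together with correlations from -0.07 to 0.13, so the block was not taken as a pairing; with the block the log2 fold change of the brightest Ugt1a6a probe was -0.71 (limma adjusted p = 0.299). Of 322 values of named member probes 311 kept their direction and side of the threshold and 11 changed sign, all of them of Sult1a1 (-0.012 under median scaling, -0.024 to 0.15 with an array left out), Sult1d1 (0.0064 in the processed table, -0.092 to 0.041) and the brightest Sult5a1 probe (-0.090 to 0.15). The group medians moved by less than the SD between arrays in every alternative. Gsto2 had no value under the stricter filter, and the causes of these moves were not tested. A difference of dim members such as Gsto2 or the second Gstm1 probe is limited by signal over background.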
